A study of Mus musculus with 16 samples.

Results

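The 10 genes described here encode AMPA-type glutamate receptors and the proteins that accompany them: the pore-forming subunits Gria1, Gria2, Gria3 and Gria4, the cornichons Cnih2 and Cnih3, and Cacng2, Cacng4, Cacng7 and Cacng8, which encode transmembrane AMPA receptor regulatory proteins. They were found by symbol among the 24539 genes of a read count table, and all 10 had enough counts to enter the statistical test, as did 13224 genes in all. Cnih3 was chosen by its measured values, because its cypermethrin difference pointed in opposite directions with and without stress in these same libraries. The values of Cnih3 in the cypermethrin comparisons are therefore given as a description with no test. So is every other Cnih3 difference except stress averaged over vehicle and cypermethrin, whose test has the limit given below.

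RNA came from GFP-positive cells of GAD67-GFP+/- mouse embryos of CD1 dams at embryonic day 14.5, captured by laser at the leading edge of migration in the cortical plate of brains fixed in paraformaldehyde. GAD67 is an enzyme of GABA synthesis, and the cell type label reads neural progenitor cells although the source label names GABAergic cells. Each sample pooled about 1000 cells, about 100 from each of 10 sections of 10 µm, of 1 embryo recorded as male, and every embryo came from a separate litter. All 16 dams were gavaged each morning on gestational days 11 to 14, and 4 groups of 4 embryos differed in what the dams received. The vehicle non-stressed group had corn oil. The cypermethrin non-stressed group had alpha-cypermethrin, a pyrethroid insecticide that acts on voltage-gated sodium channels, at 10 mg/kg. The vehicle stressed and cypermethrin stressed groups had the same gavage plus restraint under bright light. On each of days 12 and 13 these groups had 3 sessions of 45 min. Their final round, on day 14, ended 15 min before euthanasia, while every dam had its last gavage 90 min before it.

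AMPA receptors are tetramers that carry fast excitatory transmission in the brain, and many interneurons express them while they still migrate. The Gria2 subunit makes a receptor impermeable to calcium once its transcript has been edited at the codon of the Q/R site in the pore, whereas receptors without Gria2 let calcium through. Cornichons and the regulatory proteins of the Cacng family bind the receptor, help it leave the endoplasmic reticulum and slow its closing. The Cacng members take their names from a calcium channel subunit but act mainly on AMPA receptors.

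The genomic sequence around the Q/R codon is shown because it is the position at which the 4 pore subunits can differ in calcium permeability. The 45 bases run 5′ to 3′ on the coding strand, were read from GENCODE vM21 transcripts on the mm10 build, and have the codon in capitals.
Gria1: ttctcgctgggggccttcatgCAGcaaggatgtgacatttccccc
Gria2: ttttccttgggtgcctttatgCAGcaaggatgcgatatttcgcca
Gria3: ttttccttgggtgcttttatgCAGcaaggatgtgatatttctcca
Gria4: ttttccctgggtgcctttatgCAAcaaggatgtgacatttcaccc
All 4 genes encode glutamine at this codon in the genome, as CAG in Gria1, Gria2 and Gria3 and as CAA in Gria4. Relative to Gria2, the window differs at 3 bases in Gria3, at 6 in Gria4 and at 9 in Gria1. The Gria2 codon lies on the minus strand of chromosome 3 at 80706911 to 80706913, in exon 11. The others lie in exon 11 of Gria1 on chromosome 11 at 57243094 to 57243096, in exon 12 of Gria3 on chromosome X at 41610265 to 41610267 and in exon 12 of Gria4 on chromosome 9 at 4464137 to 4464139. A count table does not show how many transcripts were edited at this codon.

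Total counts per library ran from 2291283 to 4324129. Levels below are in CPM, counts scaled to the same total in every library after TMM normalisation (the trimmed mean of M values), and group values are mean ± SD with n = 4. The library labelled vehicle stressed replicate 1 went against its label of male: it held 9521 counts of Xist, a long non-coding RNA made from the silenced X chromosome of females, against at most 26 counts elsewhere. It also had the highest summed glutamatergic neuron markers, at 7563 CPM. The levels and differences below that this library moved most are also given without it. Interneuron markers, such as Gad1, Lhx6 and Dlx genes, were tested in 16 of 16 cases and summed to 1849 to 2937 CPM over all libraries. The 10 glutamatergic markers all were measured too, with sums of 4677 to 5501 CPM in the vehicle non-stressed group, 5464 to 6538 in the cypermethrin non-stressed group, 4699 to 7563 in the vehicle stressed group and 4496 to 6424 in the cypermethrin stressed group. Radial glia and progenitor markers, which bear on the label of progenitor, were tested in 9 of 10 cases and summed to 780.5 to 1107 CPM. Cajal-Retzius markers, 7 of 7 tested, summed to 1693 to 3204 CPM and vascular and meningeal markers, 10 of 10, to 1139 to 3815 CPM, while macrophage markers, 7 of 7, summed to 42.5 to 446 CPM. Of 5 oligodendrocyte precursor markers 2 were tested, and the sums were 9.04 to 86.7 CPM. The captured material thus held transcripts of genes listed as markers of several cell classes. Sums alone do not show which cells made them. The part of any class in the levels below was not tested, and in pooled cells fewer cells of a type and less RNA per cell cannot be told apart.

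Gria2, the subunit that controls calcium permeability, had the most reads of the 10 genes in every group. Its level was 848 ± 72.8 CPM in the vehicle non-stressed group, 923 ± 166 in the cypermethrin non-stressed group, 858 ± 136 in the vehicle stressed group and 767 ± 80.2 in the cypermethrin stressed group. The 16 libraries ran from 669 CPM in vehicle stressed replicate 4 to 1150 CPM in cypermethrin non-stressed replicate 4, and all 4 groups overlapped. Gria2 was also the least variable member within groups. Its SD of log2 CPM within groups was 0.199, at percentile 1.7 of the tested genes, and its level was at percentile 99.3. Against genes of like level it differed less from the norm: edgeR's biological coefficient of variation was 0.196 for Gria2 and 0.235 on the trend at that level.

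Gria1, a subunit abundant at adult synapses, had 335 ± 75.4, 340 ± 159, 342 ± 83.2 and 355 ± 40.9 CPM in the vehicle non-stressed, cypermethrin non-stressed, vehicle stressed and cypermethrin stressed groups, in that order. The 4 means differed by less than the SD of any group, while single libraries of the cypermethrin non-stressed group alone ran from 206 to 569 CPM. Gria4, a subunit known from fast-spiking interneurons and from early development, had 243 ± 28.5, 252 ± 98.2, 212 ± 50.5 and 217 ± 64.9 CPM in the same order of groups. Its libraries ran from 142 to 391 CPM, and all groups overlapped. The highest values of Gria1, Gria2 and Gria4 were all in cypermethrin non-stressed replicate 4, the library with the fewest counts, and the part of depth in this was not tested.

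Gria3, the X-linked subunit on chromosome X at 41400854 to 41678601, measured 210.1, 113.2, 166.5 and 179.1 CPM in the 4 vehicle non-stressed libraries. The cypermethrin non-stressed libraries had 197.8, 236.8, 184.7 and 167.2 CPM. The vehicle stressed libraries had 452.8, 136.2, 132.1 and 140.5 CPM, and the first of them was the highest library of the series, with 236.8 CPM the next. In the cypermethrin stressed group the values were 166.7, 93.19, 139.3 and 133.3 CPM, all below the lowest cypermethrin non-stressed library. The vehicle stressed mean was 215 ± 158 CPM with all 4 libraries and 136 ± 4.17 CPM (n = 3) without replicate 1. That library is the same one that held Xist counts.

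As a share of the reads of the 4 Gria genes together, with no correction for length, Gria2 held 53.1 ± 3.6% over the 16 libraries, Gria1 21.4 ± 4.5%, Gria4 14.4 ± 2.9% and Gria3 11.1 ± 4.2%. The Gria2 share was 53.3 ± 2.0%, 54.4 ± 3.4%, 52.7 ± 6.4% and 52.0 ± 2.1% in the vehicle non-stressed, cypermethrin non-stressed, vehicle stressed and cypermethrin stressed groups. These means lay close together, and no test of them was run. Its lowest value was 44.6%, in vehicle stressed replicate 4, where Gria1 reached its highest share of 30.5%. Gria3 reached its highest share, 24.1%, in vehicle stressed replicate 1.

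**Figure D1:**
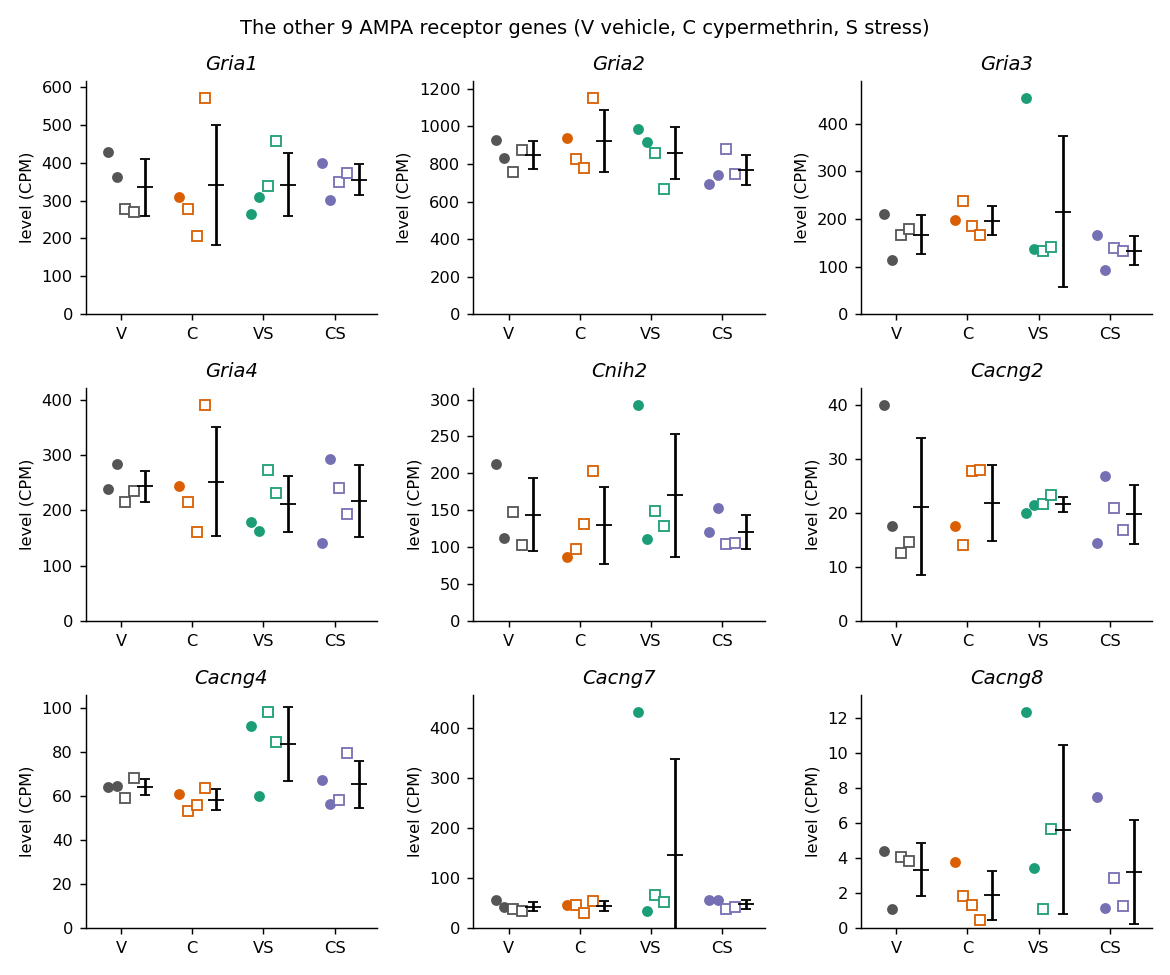
CPM of the 9 members other than Cnih3 in each of the 16 libraries, with 1 panel per gene, 1 column of points per exposure group, and a black bar for mean and SD (n = 4); filled circles and open squares are the 2 codes found in the library descriptions; the bar of Cacng7 in the vehicle stressed group reaches below the axis and is clipped at 0. Groups overlap for nearly all genes, and single high points in the vehicle stressed group stand out for Gria3 (452.8 CPM) and Cacng7 (432.3 CPM).

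To compare genes with each other, counts were divided by exon length, giving CPM per kilobase over the union of a gene's GENCODE exons. Cnih2 came first, at 103 ± 39.2 CPM per kilobase (n = 16 libraries), above Gria1 in 16 of 16 libraries. Gria1, at 56.8 ± 14.7, and Gria2, at 54.6 ± 7.83, could not be ordered, since Gria1 was above in 9 of 16 libraries. Gria4 followed at 36.6 ± 9.73, below Gria2 in 16 of 16 libraries, and Cnih3 at 34.05 ± 19.9, which was below Gria4 in 11 of 16. Next came Cacng7 at 28.6 ± 39.8, Cacng4 at 19.0 ± 3.77 and Gria3 at 18.1 ± 8.32. Vehicle stressed replicate 1, where Cacng7 had 177 CPM per kilobase, raised the Cacng7 mean, but the order of the means was the same without it. Without it (n = 15) Cacng7 had 18.7 ± 4.29, Cacng4 18.5 ± 3.44 and Gria3 16.2 ± 3.88, and with it Cacng7 was above Cacng4 in only 7 of 16 libraries and Cacng4 above Gria3 in 10 of 16. Cacng2, which encodes stargazin, had 3.84 ± 1.28 CPM per kilobase, below Gria3 in 16 of 16 libraries, and Cacng8 was last with 1.49 ± 1.30.

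The first places in this order depend on the length used. The annotated exons of Gria2 span 15.548 kilobases in union, those of Cnih2 only 1.369 kilobases. Over the longest coding transcript Gria2 had 81.9 CPM per kilobase and stood above Gria1, at 61.8, in 14 of 16 libraries. Over the coding sequence alone Gria2 came first with 320 CPM per kilobase, ahead of Cnih2 with 294 and Cnih3 with 167. Cacng2 and Cacng8 were the lowest under all 3 lengths. Cnih2 counts are also uncertain for another reason: its exons on chromosome 19, at 5092868 to 5098521, overlap Yif1a on the opposite strand. Exons of Cacng8 overlap Gm23450 on the same strand. Whether the authors counted by strand is not given in the sources used here.

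**Figure D2:**
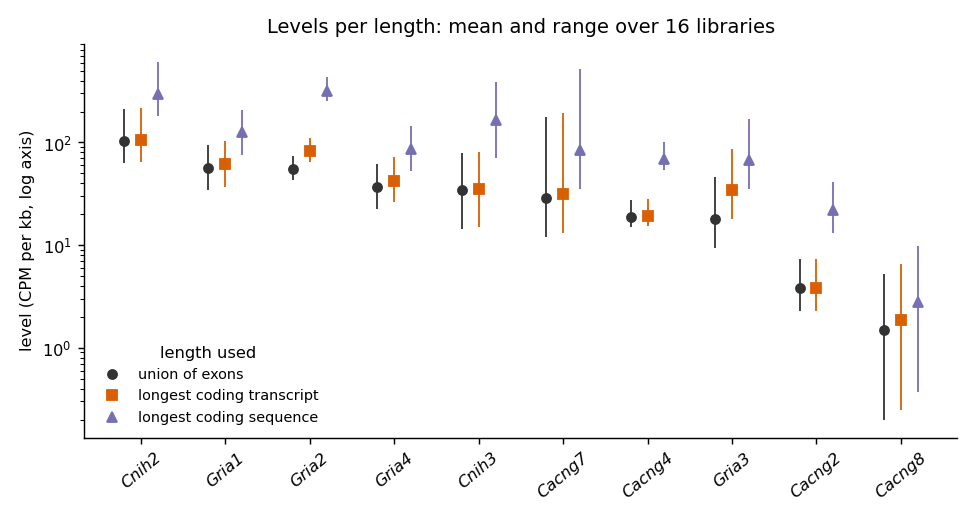
Level of each member in CPM per kilobase on a log axis under 3 gene lengths (exon union, longest coding transcript, longest coding sequence), with a marker for the mean and a line for the range over 16 libraries. Over the exon union Cnih2 lies highest, with a mean of 103, and Cacng8 lowest, with a mean of 1.49, and over the coding sequence Gria2 lies highest, with 320.

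Among the auxiliary genes, Cnih2, a cornichon known from hippocampal AMPA receptors, had 144 ± 49.4, 130 ± 52.3, 170 ± 83.0 and 121 ± 23.0 CPM in the vehicle non-stressed, cypermethrin non-stressed, vehicle stressed and cypermethrin stressed groups. Its highest library was vehicle stressed replicate 1, at 292 CPM, and the other 3 of that group lay between 111 and 149 CPM. Cacng2 had 21.2 ± 12.7, 21.9 ± 7.09, 21.7 ± 1.37 and 19.8 ± 5.47 CPM in the same order, and the groups overlapped throughout.

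Cacng4, a regulatory protein gene on chromosome 11 at 107732357 to 107794557, had an SD of log2 CPM within groups of 0.205, close to that of Gria2, and a biological coefficient of variation of 0.293 against 0.377 on the trend at its level. The vehicle non-stressed libraries ran from 59.1 to 68.2 CPM and the cypermethrin non-stressed libraries from 53.4 to 63.5 CPM. The vehicle stressed libraries had 91.8, 60.1, 98.3 and 84.6 CPM, so that 3 of 4 stood above every library of the other groups. The cypermethrin stressed libraries ran from 56.3 to 79.5 CPM. Its log2 difference in the vehicle stressed against the vehicle non-stressed group was 0.39 ± 0.28 (SE), with an adjusted p = 0.978 in edgeR's quasi-likelihood test, and this gene was picked out after its values had been seen.

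Cacng7, another regulatory protein gene, lies on chromosome 7 at 3332955 to 3368221, next to Cacng8 at 3390683 to 3415648. The vehicle non-stressed libraries had 56.2, 42.2, 37.9 and 34.5 CPM, and the cypermethrin non-stressed libraries 44.9, 45.9, 29.2 and 54.2 CPM. The vehicle stressed libraries had 432.3, 33.5, 66.2 and 51.9 CPM. Those of the cypermethrin stressed group had 54.9, 55.6, 37.3 and 41.6 CPM. Apart from vehicle stressed replicate 1, all 15 libraries lay between 29.2 and 66.2 CPM, and the groups overlapped. The vehicle stressed mean of 146 ± 191 CPM became 50.5 ± 16.4 CPM (n = 3) without that library. Cacng8, a partner of hippocampal receptors, was close to the limit of detection with 1 to 26 counts per library. Its group means ran from 1.86 ± 1.40 CPM in the cypermethrin non-stressed group to 5.63 ± 4.86 CPM in the vehicle stressed group, and its highest value, 12.4 CPM, was also in vehicle stressed replicate 1, without which that mean was 3.39 ± 2.29 CPM (n = 3).

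Cnih3, the second cornichon, lies on chromosome 1 at 181352628 to 181460641 and had 173 to 817 counts per library. The vehicle non-stressed libraries had 116.5, 74.25, 68.89 and 56.36 CPM. With cypermethrin and no stress the values were 60.79, 114.4, 217.1 and 85.47 CPM, so that 3 of 4 libraries overlapped the vehicle range and 1 stood far above it. The vehicle stressed libraries had 215.5, 128.4, 94.38 and 80.14 CPM. With both exposures the values were 55.76, 39.90, 45.04 and 45.85 CPM, and these 4 libraries were the lowest of all 16. Group means were 79.0 ± 26.1, 119 ± 68.7, 130 ± 60.7 and 46.6 ± 6.63 CPM in this order of groups. Without replicate 1 the vehicle stressed mean was 101 ± 24.8 CPM (n = 3).

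**Figure D3:**
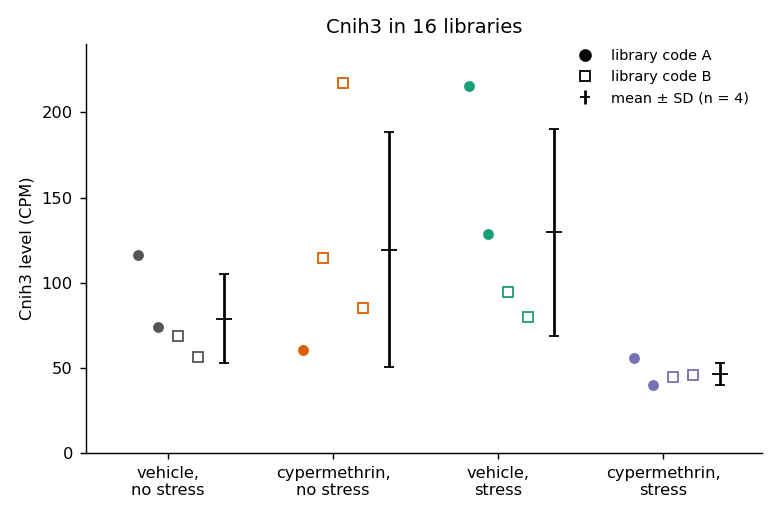
Cnih3 level in CPM in each of the 16 libraries by exposure group, with mean and SD (n = 4); filled circles and open squares are the first (A) and second (B) library code. The 4 cypermethrin stressed libraries lie between 39.90 and 55.76 CPM, below every other library, and the high points are cypermethrin non-stressed replicate 3 (217.1 CPM) and vehicle stressed replicate 1 (215.5 CPM).

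The fitted log2 differences of Cnih3 carry standard errors here but no p-values, since its choice used them or values bound to them. Cypermethrin against vehicle was 0.60 ± 0.36 without stress and -1.47 ± 0.36 with stress, and the difference of these differences was -2.07 ± 0.51. Stress against no stress was 0.71 ± 0.36 with vehicle and -1.36 ± 0.36 with cypermethrin, and both exposures against neither was -0.76 ± 0.36. These comparisons share groups, so they are not separate sightings of one pattern. The positive difference without stress rests largely on 1 library: without cypermethrin non-stressed replicate 3 it was 0.15. That library also had the highest sums of macrophage and of vascular and meningeal markers, at 446 and 3815 CPM, and the part of these in its Cnih3 level was not tested. The stress difference with vehicle was 0.36 without vehicle stressed replicate 1, and the difference of differences was then -1.72.

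The negative difference with stress moved less. It was -1.12 without vehicle stressed replicate 1, and ran from -1.65 to -1.12 over all ways of leaving out 1 library. This difference helped to choose Cnih3, and each such fit reuses the other libraries behind that choice. Its narrower range is therefore favoured by the choice, and nothing is read from it. The library descriptions carry either of 2 codes of unstated meaning, which divide the libraries into 7 and 9. Within the first code the cypermethrin difference of Cnih3 was -0.65 without stress and -1.85 with stress, and within the second it was 1.15 and -0.94. The opposite signs were therefore present only within the second code, where 3 cypermethrin non-stressed libraries, at 85.47 to 217.1 CPM, met 2 vehicle libraries at 56.36 and 68.89 CPM. The first code holds a single cypermethrin non-stressed library, at 60.79 CPM, beside vehicle libraries at 74.25 and 116.5 CPM. The difference of differences was -1.20 within the first code and -2.10 within the second. Cnih3 was chosen from these same libraries by a pattern that favours a negative value, so nothing is read from the shared sign.

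Averaging stress over both gavages uses Cnih3 in a direction apart from the cypermethrin differences that chose it, so this 1 contrast was tested. It still uses the same libraries, and is free of that choice only where the groups have a like spread. The group SDs of Cnih3 ran from 6.63 to 68.7 CPM, so nothing is read from the p. Stressed groups were lower by a log2 difference of -0.32 ± 0.25, with an adjusted p = 0.960 in edgeR's quasi-likelihood test. Without cypermethrin non-stressed replicate 3 the value was -0.09, without vehicle non-stressed replicate 1 it was -0.20, without vehicle stressed replicate 1 it was -0.50, and within the first code it was 0.25, the opposite direction.

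The balance of the pair of cornichons, as log2 of Cnih3 over Cnih2 CPM with no correction for length, was -0.86 ± 0.21 in the vehicle non-stressed group, -0.21 ± 0.86 in the cypermethrin non-stressed group, -0.39 ± 0.42 in the vehicle stressed group and -1.37 ± 0.39 in the cypermethrin stressed group. The ratio was at its lowest, -1.94, in a cypermethrin stressed library, and at its highest, 0.73, in a cypermethrin non-stressed one. The cypermethrin stressed range, up to -1.12, lay just below the vehicle non-stressed range, which began at -1.10, and below the vehicle stressed range, from -0.68. It overlapped the cypermethrin non-stressed range, which began at -1.25. This ratio contains the values that chose Cnih3 and is given without a test.

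For the other 9 members, edgeR called 0 genes in all comparisons at an adjusted p under 0.05, where 0.00% of all 13224 tested genes were called too. DESeq2 and limma voom on all libraries also called 0 of these members. The background is therefore best read from unadjusted p under 0.05 and from groups that did not overlap. Standard errors for single group comparisons were 0.15 for Gria2, about 0.24 to 0.31 for the other Gria genes and Cnih2, 0.28 for Cacng4, 0.50 for Cacng2, about 0.52 for Cacng7 and about 1.10 for Cacng8. The numbers of members above and below 0 and their medians, given below, were unstable, and values with 1 library left out are given with them.

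Cypermethrin without stress against vehicle without stress asks what the insecticide did alone. Of the 9 members 6 had a fitted difference above 0 and 3 below, with a median log2 of 0.03, equal to the median of all tested genes. With 1 library left out, the number above 0 ran from 2 to 7 and the median from -0.17 to 0.18, with the lowest median without cypermethrin non-stressed replicate 4. At an unadjusted p under 0.05 there were 0 members, against 3.71% of all genes, and 0 members had groups that did not overlap, against 2.52% of all genes. The smallest p among them belonged to Gria2, with a log2 difference of 0.12 ± 0.15 and an adjusted p = 0.999 in edgeR's test. Without cypermethrin non-stressed replicate 4 this difference was 0.00, at an unrounded 0.004.

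Cypermethrin with stress against vehicle with stress had 7 of the 9 members below 0 and 2 above, with a median of -0.36 against -0.01 for all genes. With 1 library left out, the number above 0 ran from 0 to 2 and the median from -0.49 to -0.10. Without vehicle stressed replicate 1 the counts were 0 above and 9 below, with a median of -0.10. The unadjusted p was under 0.05 for 2 members, Cacng7 and Gria3, against 5.39% of all genes. Cacng7 had a log2 difference of -1.62 ± 0.52 and Gria3 of -0.69 ± 0.31, each with an adjusted p = 0.902 in edgeR's test. Without vehicle stressed replicate 1 the values were -0.10 and -0.04, and limma voom on all libraries gave -0.65 and -0.41. Within the first library code, which holds that library, Cacng7 was called at -2.07 (edgeR adjusted p = 0.0323), where 0.396% of the 14404 genes tested were called, and within the second it had -0.58. Of the other 9 members 0 had groups that did not overlap, against 3.04% of all genes. The groups of Cnih3 did not overlap, and this contrast chose it.

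Stress with vehicle against vehicle alone asks what restraint did by itself. Of the 9 members 8 were fitted above 0 and 1 below, with a median of 0.24 against 0.01 for all genes. Without vehicle stressed replicate 1 there were 5 above and 4 below, with a median of 0.04, and without vehicle non-stressed replicate 3 there were also 5 above. The median ran from 0.04 to 0.49 with 1 library left out. Cacng7 was the 1 member with an unadjusted p under 0.05, against 5.08% of all genes, at a log2 difference of 1.77 ± 0.52 and an adjusted p = 0.965 in edgeR's test. Without vehicle stressed replicate 1 its difference was 0.25, and limma voom on all libraries gave 0.82. Within the first library code, which holds that library, Cacng7 had 2.24, and within the second it had 0.71. In the first code 2 vehicle stressed libraries, at 33.51 and 432.3 CPM, met 2 vehicle non-stressed libraries at 42.2 and 56.23 CPM. Groups that did not overlap numbered 0 members and 2.90% of all genes.

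Stress with cypermethrin against cypermethrin alone had 4 of the 9 members above 0 and 5 below, with a median of -0.10 against -0.02 for all genes. With 1 library left out, the number above 0 ran from 2 to 6 and the median from -0.24 to 0.19, with the highest median without cypermethrin non-stressed replicate 4. An unadjusted p under 0.05 was seen for 0 members and 4.31% of all genes. Gria3 came closest, with a log2 difference of -0.56 ± 0.31 and an adjusted p = 0.997 in edgeR's test. Its 2 groups did not overlap, at 93.19 to 166.7 CPM against 167.2 to 236.8 CPM, a gap of less than 1 CPM between the nearest libraries. It was the 1 such member of the 9, against 2.58% of all genes. The groups of Cnih3 did not overlap either, but its choice used the cypermethrin stressed and non-stressed values, so nothing is read from this. Leaving out single libraries moved the Gria3 difference between -0.69 and -0.43.

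Both exposures against neither had 3 of the 9 members above 0 and 6 below, with a median of -0.09 against 0.00 for all genes. Without vehicle non-stressed replicate 1 there were 6 above, with a median of 0.03, and without cypermethrin stressed replicate 1 the median was -0.01, at an unrounded -0.008. There were 0 members with an unadjusted p under 0.05, against 1.49% of all genes. The smallest p was that of Gria3, at -0.33 ± 0.31 with an adjusted p = 1 in edgeR's test, and its difference was -0.20 without vehicle non-stressed replicate 1 or without cypermethrin stressed replicate 2. Groups that did not overlap numbered 0 of the 9 members, against 2.62% of all genes. Those of Cnih3 did not overlap, and its choice used both groups, so nothing is read from this.

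The interaction, the cypermethrin difference with stress minus that without, was below 0 in 8 of the 9 members and above in 1, with a median of -0.22 against -0.04 for all genes. With 1 library left out, the number above 0 ran from 0 to 3 and the median from -0.34 to -0.13, which was -0.13 without vehicle stressed replicate 1. Cacng7, at -1.65 ± 0.73, and Gria3, at -0.93 ± 0.44, were the 2 members with an unadjusted p under 0.05, against 4.70% of all genes, and each had an adjusted p = 0.985 in edgeR's test. Without vehicle stressed replicate 1 the values were -0.13 for Cacng7 and -0.28 for Gria3. Gria1 had 0.03 ± 0.34, Gria4 -0.01 ± 0.35 and Cnih2 -0.34 ± 0.44.

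Averaged over stress, cypermethrin gave 7 of the 9 members below 0 and 2 above, with a median of -0.23 against 0.01 for all genes. With 1 library left out, the number above 0 ran from 0 to 4 and the median from -0.31 to -0.03, and the value nearest 0 was that without vehicle stressed replicate 1. Cacng7 was the 1 member with an unadjusted p under 0.05, against 4.59% of all genes, at -0.80 ± 0.36 and an adjusted p = 0.981 in edgeR's test, and its value was -0.03 without vehicle stressed replicate 1. Cnih3 had -0.44 ± 0.25. Stress averaged over both gavages, with all 10 genes counted and Cnih3 among them, gave 5 above and 5 below 0. The median was 0.00, and it ran from -0.08 to 0.16 with 1 library left out. Cacng7 again was the 1 member with an unadjusted p under 0.05, against 5.13% of all genes, at 0.95 ± 0.36 with an adjusted p = 0.960 in edgeR's test, and it had 0.18 without vehicle stressed replicate 1.

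**Figure D4:**
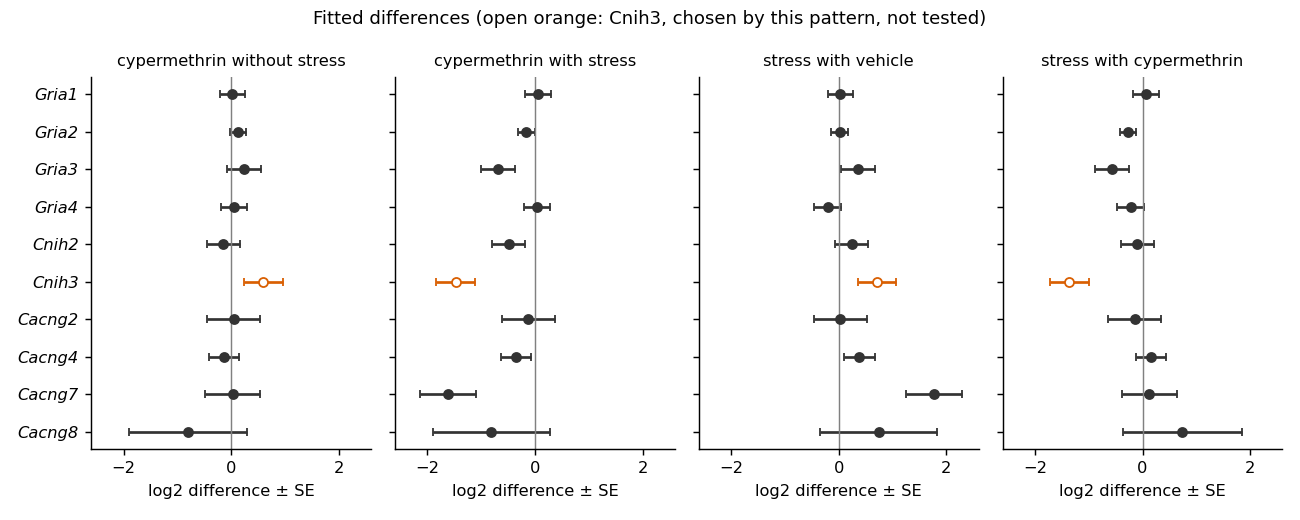
Log2 differences of the 10 members in 4 comparisons (cypermethrin without and with stress, stress with vehicle and with cypermethrin), as points with standard errors from edgeR, and with Cnih3 marked as untested because its values chose it. The points farthest from 0 are those of Cacng7 in the comparisons that involve the vehicle stressed group (-1.62 and 1.77) and those of Cnih3 in the comparisons that involve the cypermethrin stressed group (-1.47 and -1.36).

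**Figure D5:**
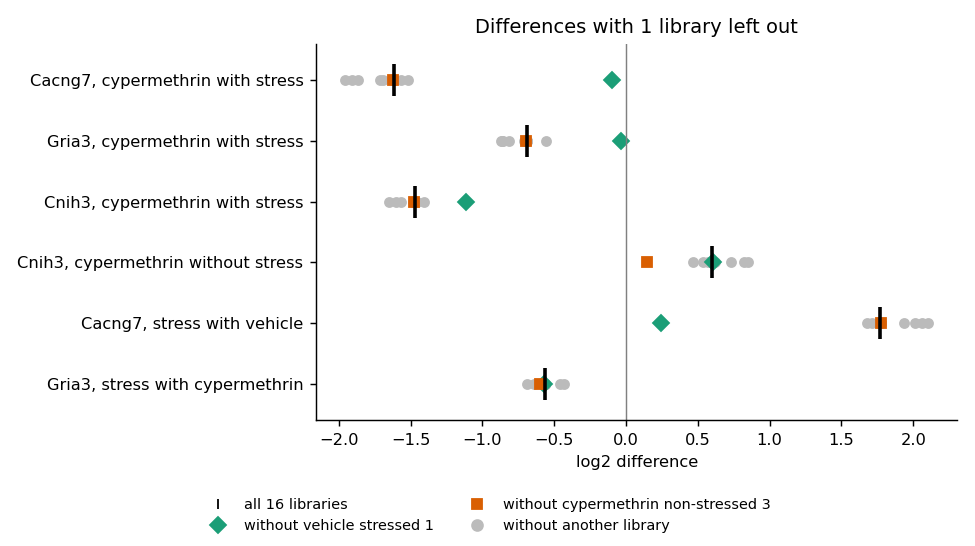
Log2 differences of Cacng7, Gria3 and Cnih3 in selected comparisons, with all 16 libraries (black bar) and with single libraries left out (other symbols, with vehicle stressed replicate 1 and cypermethrin non-stressed replicate 3 marked). Cacng7 moves from -1.62 to -0.10 in the cypermethrin comparison under stress when vehicle stressed replicate 1 is left out. Cnih3 lies between -1.65 and -1.12 there over all libraries left out, a range that its choice by this difference favours.

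Other genes that serve AMPA receptors were taken as lists. Of 20 further auxiliary proteins 19 were tested and 0 were called in any of the 8 comparisons by edgeR, with at most 1 of them under an unadjusted p of 0.05 in a comparison. Their highest levels were those of Olfm1, a secreted olfactomedin that binds AMPA receptors, at 59.4 ± 16.6 CPM per kilobase, and of Cnih1, a broadly expressed cornichon, at 29.7 ± 11.5. Over the 8 comparisons 6 to 11 of the 19 were fitted above 0, with medians from -0.08 to 0.05. Of 22 scaffold and traffic proteins 19 were tested and 0 called, with at most 2 under an unadjusted p of 0.05 in a comparison, while Nptx2, Nptxr and Arc had too few counts. Rab11a, a recycling endosome GTPase, had 37.6 ± 8.23 CPM per kilobase and Epb41l1, a cytoskeletal linker of Gria1, had 20.3 ± 4.74. Over the 8 comparisons 6 to 13 of the 19 were fitted above 0, with medians from -0.12 to 0.09. Among all tested genes 1.49% to 5.39% had an unadjusted p under 0.05, depending on the comparison.

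All 3 RNA editing enzyme genes were tested and 0 were called. Adar had 9.67 ± 2.22 CPM per kilobase and Adarb1, the enzyme that edits the Q/R codon of Gria2, 3.06 ± 1.54. Of the relatives outside the AMPA receptor group, Cnih4 was tested, at 8.69 ± 4.296 CPM per kilobase, and not called, while Cacng1 and Cacng6 had too few counts.

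The 5 tested genes whose log2 CPM followed Cnih3 most closely over the 16 libraries were Ube2o, with Pearson r = 0.874, St5 with 0.842, Phc1 with 0.828, Mroh1 with 0.816 and Herc1 with 0.812. These correlations were picked as the highest of 13223 and carry no p, and their points share libraries and the 4 exposure groups. Ube2o, for example, had 63.1 ± 11.9 CPM in the vehicle non-stressed and 78.8 ± 25.8 in the cypermethrin non-stressed group. It had 90.3 ± 40.6 in the vehicle stressed and 57.7 ± 4.74 in the cypermethrin stressed group. Its means had the same order as those of Cnih3, which its choice by correlation favours. Among the other members Gria3 was nearest, with r = 0.639 and rank 149, followed by Cnih2 with 0.477 and rank 712. Vehicle stressed replicate 1 was the highest library for Gria3, at 452.8 CPM, and for Cnih2, at 292.5 CPM. For Cnih3 it had 215.5 CPM, with only 217.1 CPM above it, and correlations without this library were not worked out. Gria1 had r = -0.338.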

How the data were processed

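The deposited values are raw counts, whole numbers for 24539 gene symbols in each of 16 samples, of which 18733 were above 0 in some sample. The submitters' processing notes name STAR 2.5 and the build mm10. Which program counted reads, with which annotation, strand setting or filters, is not given in the sources used here. Libraries were made from total RNA of fixed tissue with a Trio RNAseq kit, per the labels' protocols. Groups follow the exposures in the labels, and replicate numbers, given in accession order, pair no samples.

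The test was the robust quasi-likelihood test of edgeR 4.0.16 (R 4.3.3), with a mean for each group over all 16 libraries after TMM scaling, on the 13224 genes that filterByExpr kept at a count minimum of 10. A call needed a p under 0.05 after Benjamini-Hochberg adjustment over all tested genes. Standard errors were worked out as the log2 difference over the root of its F. Likeness to Cnih3 used log2 CPM with a prior count of 2. Gene positions and lengths come from GENCODE vM21, in which 23837 symbols had a unique entry.

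The members and lists were chosen with earlier results of these data known. Differences are named for Cnih3 in each comparison and for members with an unadjusted p under 0.05 or, with none, the member with the smallest p; the 2 highest genes of each list are named by level, and the 5 nearest genes to Cnih3. Beyond the rule, Cacng4 and the interaction values of Gria1, Gria4 and Cnih2, were chosen after their values were seen. The fit was tested on simulated counts. Alternatives were DESeq2 1.42.0, limma voom 3.58.1, DESeq2-style size factors, no filter, each library left out, 4 libraries left out, only the groups compared, and the library code as a term or within each code.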

Additional observations from a re-analysis of the deposited data

Results flagged for a closer look

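A test for a single extreme sample was applied to the 4 libraries of each group for each of the 10 genes, 40 sets in all, and 3 sets passed Dixon's 95% critical value for 4 samples. Chance alone passes about 1 in 20 such sets. Gria3 in vehicle stressed replicate 1 was 452.8 CPM against 140.5 CPM in the nearest library of its group, a gap of 0.974 of the group's range. Cacng7 in the same library was 432.3 CPM against 66.25 CPM, a gap of 0.918 of the range. Both highs are in the library that held 9521 counts of Xist, and whether the source of that RNA accounts for them was not tested. Cacng8 in vehicle non-stressed replicate 2 was low, at 1.068 CPM against 3.86 CPM in the nearest library, a gap of 0.844 of the range, and this gene had 1 to 26 counts per library.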

How the results depend on the processing

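Counts of members called by edgeR were 0 in the 8 comparisons with all libraries, and 195 of 197 alternative counts stayed at that. The other 2 came from the first library code, in Cacng7. Its log2 differences there were -2.07 for cypermethrin with stress and 2.24 for stress with vehicle, each from 2 libraries against 2. The vehicle stressed libraries of that code had 432.3 CPM, in replicate 1, and 33.51 CPM. Its fit held only 1 cypermethrin non-stressed library, so no p is given. Within the second code the same differences were -0.58 and 0.71. For Cnih3, stress averaged over both gavages reversed to 0.25 within the first code. Of its 197 alternative differences 190 counted as unmoved, under a rule that allowed shifts wider than a standard error. Its cypermethrin difference averaged over stress, -0.44 ± 0.25 with all libraries, was -1.25 within the first code and 0.11 within the second. The value of 0.11 counted as unmoved although its sign changed. Of 246 differences of other named members 244 kept their direction and side of the threshold. Without the 4 libraries that stood apart (vehicle stressed 1, cypermethrin non-stressed 3 and 4, cypermethrin stressed 1) the Cnih3 interaction was -1.37 and its cypermethrin difference without stress 0.15. Of 20 levels per kilobase under the other lengths, a check added after seeing the data, 11 moved by more than their spread, and 0 of 10 did under other size factors. Of 394 direction counts and medians over the members, 117 changed sign or moved by over 1.5 times under an alternative. Size factors of the DESeq2 type moved the median of all genes the most in the interaction, by -0.017 on the log2 scale. No paired analysis was possible because replicate numbers are in accession order. Depth limits Cacng8 and Cacng2 most. The causes of these shifts were not tested.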
